A study of Mus musculus with 10 samples.

Results

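The collagen chain genes were taken as every entry of the deposited expression table whose symbol reads Col, a number, the letter a, a number and nothing more. The rule found 44 genes among 35663 entries. Grouped by the kind of assembly their proteins form or, for cartilage, by tissue, they comprised 8 fibrillar chains, 9 chains of basement membranes and the zone beneath them, 6 fibril-associated (FACIT) chains, 7 chains known from cartilage and 14 others (beaded filaments, hexagonal networks, transmembrane collagens and 2 further chains). Chains placed under cartilage are not counted in the fibrillar or FACIT class, whatever their assembly. Collagen molecules are trimers of chains wound into a triple helix, a fold that needs glycine at regular steps along the chain. Fibrillar collagens are laid down by mesenchymal cells and give tissue its tensile strength, whereas type IV collagen forms the sheet-like network on which epithelia and endothelia rest. In the embryonic kidney, the stroma around the nephrons and vessels is the main site of interstitial collagen, and the type IV network lines ureteric bud, nephrons and capillaries.

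RNA was measured in whole kidneys of mouse embryos at E13.5, labelled as strain C57/b6. Labelled as wild type were 4 libraries. The 3 *Foxd1GC* control libraries (labelled Foxd1-Cre) carried a Cre allele that acts in *Foxd1*-positive stromal progenitors. The 3 *Ntn1SPKO* libraries (labelled Foxd1-Cre; Ntn1c/c) carried the same Cre together with the conditional allele of netrin 1 on both chromosomes, so that the deletion was meant for stromal cells only and other kidney cells kept the gene. The comparison of *Ntn1SPKO* with *Foxd1GC* control holds the Cre constant, and that of *Foxd1GC* control with wild type sets libraries with the Cre against libraries without it. According to the paper, *Foxd1GC* also entails the loss of a *Foxd1* allele. Both comparisons with wild type therefore differ in *Foxd1* dose as well, and the parts of Cre and dose cannot be told apart. *Ntn1* was listed at 16.3, 13.1 and 10.7 FPKM (fragments scaled to transcript length and library size) in *Ntn1SPKO*, at 40.7, 24.2 and 51.4 in *Foxd1GC* control and at 31.9, 28.3, 27.1 and 46.3 in wild type, so the mutant libraries lay below every other library. By limma the log2 difference was -1.48 ± 0.29 (± SE) against *Foxd1GC* control and -1.303 ± 0.21 against wild type, with adjusted P of 0.447 and 0.140.

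The 10 libraries were alike in depth, at a rough 28.2 to 32.4 M fragments as read from the spacing of low values, but they differed in Y-linked transcripts and in markers of other tissues. Transcripts of Y-linked genes were present in all 3 *Ntn1SPKO* libraries, in *Foxd1GC* control 2 and in wild type 3, and near 0 in *Foxd1GC* controls 1 and 3 and wild types 1, 2 and 4. Summed transcripts of 12 skeletal muscle markers, 9 of them with a mean above 0.5 FPKM, reached 222, 67.5 and 1031 FPKM in *Foxd1GC* controls 1, 2 and 3, 119 to 222 FPKM in wild type and 17.5 to 72.8 FPKM in *Ntn1SPKO*. The summed level of 8 kidney markers was 334 to 401 FPKM, but single markers differed in *Foxd1GC* control 3. There *Ret*, *Gata3* and *Pax2*, which mark the ureteric bud or epithelia, were the lowest of all libraries, at 4.09, 9.10 and 31.2 FPKM against at least 14.1, 29.5 and 45.5 elsewhere. *Six2* and *Cited1*, markers of nephron progenitors, were the highest there, at 96.4 and 70.1 FPKM. *Foxd1* was at 14.2 to 15.4 FPKM in *Ntn1SPKO* and *Foxd1GC* control 2 and at 19.7 to 30.7 in the other libraries. The part of these markers in the collagen levels was not tested. The sum of 10 cartilage markers other than collagens, 4 of them with a mean of at least 0.5 FPKM, was 22.1 to 37.4 FPKM. Most of it came from *Sox9* and *Hapln1*, with means of 17.2 and 13.1 FPKM. Both were lowest in *Foxd1GC* control 3, at 11.9 and 6.96 FPKM, where *Epyc* was highest, at 1.85. The sum therefore says little about cartilage. Markers of bone (3.71 to 5.61 FPKM), skin epithelium (5.45 in *Foxd1GC* control 3 and 0.754 to 2.66 elsewhere) and peripheral nerve (1.32 to 2.98) were low in sum. The 3 genes listed as ureteric and periureteric markers summed to 68.8 to 109 FPKM, mostly from *Tcf21*, with a mean of 83.3. *Tbx18* and *Foxf1* had means of 9.92 and 0.863 FPKM and were highest in *Foxd1GC* control 1, at 17.1 and 2.20. In whole-organ RNA, fewer cells of a type and less RNA per cell cannot be told apart.

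Some collagen chains were abundant in these kidneys, and interstitial chains led. All 44 genes together made up 0.124 to 0.31% of the summed FPKM of a library. The 44 genes summed to 1763, 1600, 1244 and 1668 FPKM in the wild-type libraries, to 2453, 1497 and 2716 in *Foxd1GC* control and to 1505, 1452 and 1703 in *Ntn1SPKO*. *Foxd1GC* controls 1 and 3 thus stood above the other 8 libraries, and *Foxd1GC* control 2 lay within the range of wild type. Fibrillar chains made up 52.2 to 59.8% of the sum in those other libraries and 64.1 and 66.9% in *Foxd1GC* controls 1 and 3. The share of basement membrane chains was 20.6 to 26.7% in the other libraries and 14.7 and 11.0% in *Foxd1GC* controls 1 and 3.

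**Figure D1:**
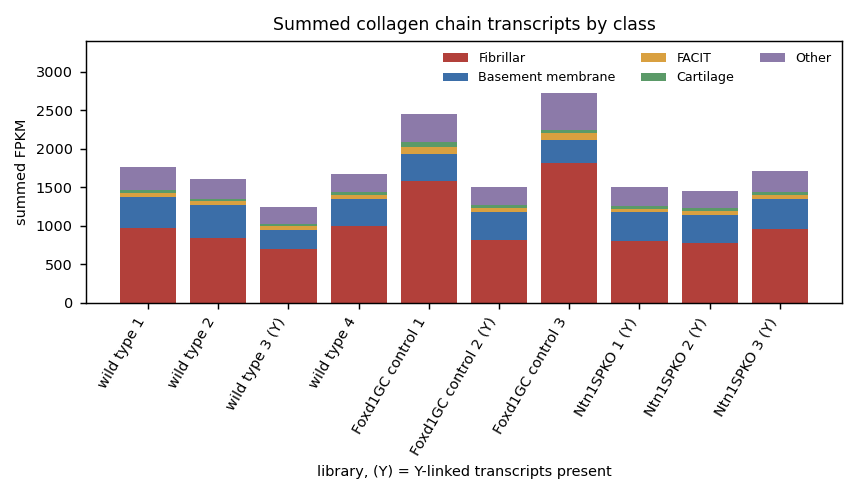
Summed FPKM of the collagen chain genes (vertical axis) in each of the 10 libraries (horizontal axis), stacked by class; (Y) marks libraries with Y-linked transcripts. The bars of *Foxd1GC* controls 1 and 3 reach 2453 and 2716 FPKM and the other 8 lie between 1244 and 1763, with basement membrane chains between 257 and 427 FPKM.

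Of the 44 genes, 42 were above 0 in every library, and 35 averaged 0.5 FPKM or more across the libraries. The 9 below that level were *Col19a1*, *Col20a1*, *Col4a3*, *Col4a4*, *Col6a4*, *Col6a5*, *Col17a1*, *Col28a1* and *Col10a1*. *Col10a1*, the collagen of hypertrophic cartilage, was listed at 0 in 8 libraries and at no more than 0.0228 FPKM in the others. *Col4a3* and *Col4a4*, whose chains later form the mature network of the glomerular basement membrane, were at 0.0899 to 0.306 and 0.273 to 0.742 FPKM. Levels thus spanned from near 0 to the 787 FPKM of *Col3a1* in *Foxd1GC* control 3.

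Among the fibrillar chains, *Col3a1*, *Col1a1* and *Col1a2* were the most abundant. *Col3a1* (chr1:45311538-45349706, plus strand, GRCm38), the single chain of type III collagen, was at 437, 378, 291 and 444 FPKM in wild type, 651, 369 and 787 in *Foxd1GC* control and 367, 341 and 417 in *Ntn1SPKO*. *Col1a1* (chr11:94936224-94953042, plus strand), the major chain of type I collagen, was at 309, 258, 233 and 321 FPKM in wild type, 548, 240 and 564 in *Foxd1GC* control and 233, 231 and 290 in *Ntn1SPKO*. For both, *Foxd1GC* controls 1 and 3 were the highest of all libraries, whereas *Foxd1GC* control 2 overlapped wild type and *Ntn1SPKO*. *Col1a2*, the second chain of type I, was at 153, 131, 112 and 152 FPKM in wild type, 268, 146 and 341 in *Foxd1GC* control and 137, 144 and 175 in *Ntn1SPKO*. *Col5a1* and *Col5a2*, chains of the type V collagen that starts fibrils, followed at means of 35.6 and 31.7 FPKM, and *Col27a1*, *Col24a1* and *Col5a3* at 5.67, 1.75 and 1.03 FPKM. The low *Col5a3* had the widest spread of the class within *Foxd1GC* control, at 1.82, 0.735 and 2.36 FPKM.

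**Figure D2:**
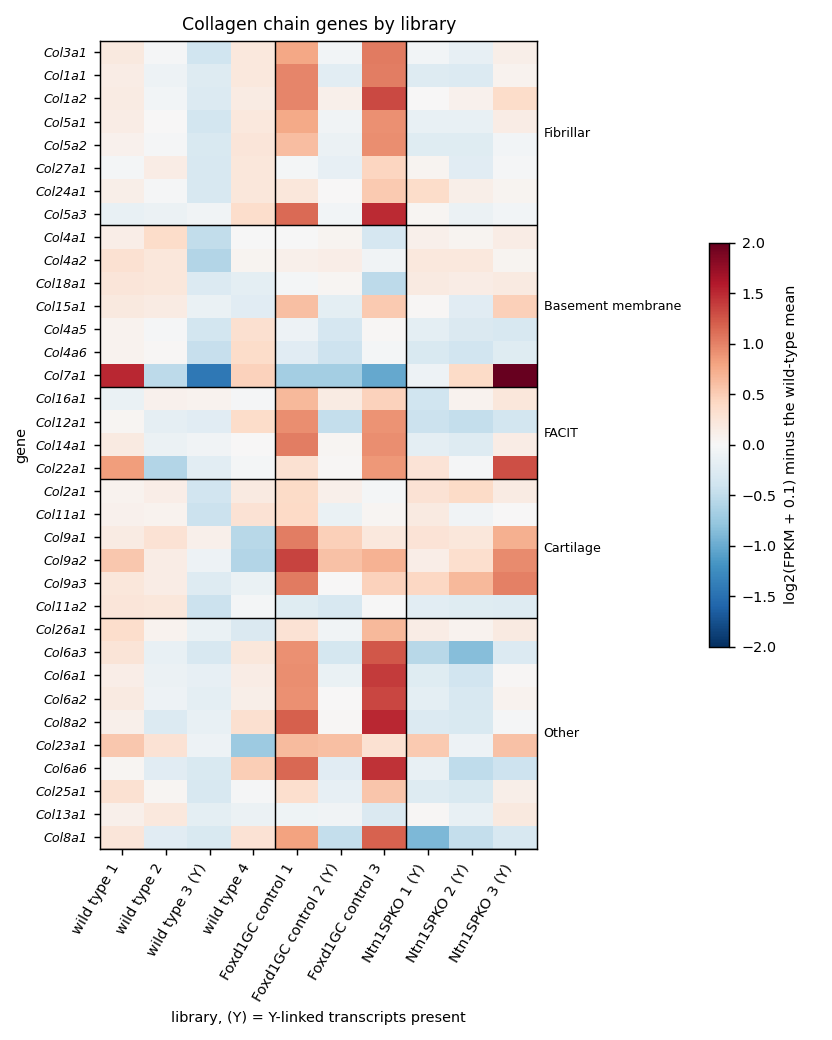
Each of the 35 collagen chain genes averaging 0.5 FPKM or more (rows, by class) in the 10 libraries (columns), as log2(FPKM + 0.1) minus the mean of the wild-type libraries; red is higher and blue lower. The columns of *Foxd1GC* controls 1 and 3 are red over most fibrillar, FACIT and other chains and pale or blue over type IV chains, and the column of *Foxd1GC* control 2 is pale over most rows.

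The basement membrane chains were led by *Col4a1* and *Col4a2*, which together form the type IV network of nearly all embryonic basement membranes. *Col4a1* was at 210, 248, 136 and 192 FPKM in wild type, 191, 199 and 152 in *Foxd1GC* control and 207, 198 and 213 in *Ntn1SPKO*. *Col4a2* was at 74.1, 70.3, 39.8 and 62.6 FPKM in wild type, 64.6, 65.7 and 57.1 in *Foxd1GC* control and 69.3, 69.5 and 62.6 in *Ntn1SPKO*. Here the groups overlapped, wild type 3 was the lowest library for both chains, and *Foxd1GC* control 3 was the next lowest. *Col18a1*, the source of endostatin, was at 68.2, 67.6, 47.6 and 50.5 FPKM in wild type, 56.1, 59.3 and 40.2 in *Foxd1GC* control and 65.7, 63.9 and 65.5 in *Ntn1SPKO*. *Col15a1*, its relative in the zone below vascular and muscle basement membranes, had a mean of 25.8 FPKM and was the single basement membrane chain with *Foxd1GC* controls 1 and 3 above all other libraries, at 35.1 and 33.2 FPKM against 19.7 to 32.4. The X-linked *Col4a5* and *Col4a6* followed at means of 11.7 and 2.03 FPKM. *Col7a1*, which forms the anchoring fibrils of skin, varied widely in wild type, from 0.189 to 2.10 FPKM, and in *Ntn1SPKO*, at 0.624, 0.911 and 3.10, but was at 0.387, 0.388 and 0.283 in *Foxd1GC* control.

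FACIT chains sit on the surface of fibrils. *Col16a1* was at 19.5, 22.6, 22.3 and 20.9 FPKM in wild type, 33.4, 23.9 and 29.5 in *Foxd1GC* control and 16.2, 22.3 and 24.9 in *Ntn1SPKO*. *Col12a1* was at 16.9, 14.4, 14.0 and 21.1 FPKM in wild type, 31.2, 11.8 and 30.7 in *Foxd1GC* control and 12.2, 11.8 and 12.7 in *Ntn1SPKO*. *Col14a1* was at 14.5, 11.8, 12.1 and 12.8 FPKM in wild type, 26.1, 13.1 and 24.2 in *Foxd1GC* control and 11.2, 10.6 and 14.1 in *Ntn1SPKO*. In all 3, *Foxd1GC* controls 1 and 3 were again the highest libraries. *Col22a1* was near 0.5 FPKM and *Col19a1* and *Col20a1* below it.

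The chains named for cartilage were low here. *Col2a1* and *Col11a1*, major chains of cartilage fibrils that other embryonic tissues also use, had means of 13.3 and 12.3 FPKM. *Col2a1* averaged 12.2 ± 2.04 FPKM (SD, n = 4) in wild type, 13.4 ± 2.03 (n = 3) in *Foxd1GC* control and 14.6 ± 1.07 (n = 3) in *Ntn1SPKO*, with overlap between all groups. The type IX chains *Col9a1*, *Col9a2* and *Col9a3* had means of 7.51, 3.75 and 2.21 FPKM. *Col9a3* was at 1.93, 1.82, 1.35 and 1.47 FPKM in wild type, 3.44, 1.63 and 2.28 in *Foxd1GC* control and 2.20, 2.61 and 3.38 in *Ntn1SPKO*. *Foxd1GC* controls 1 and 3 were jointly above the other libraries for none of the 6 cartilage chains averaging 0.5 FPKM or more, the lowest of which was *Col11a2* at 0.642 FPKM.

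Among the other chains, *Col26a1*, a short collagen first described in gonads, was the most abundant, at 178, 146, 126 and 113 FPKM in wild type, 170, 132 and 219 in *Foxd1GC* control and 154, 146 and 157 in *Ntn1SPKO*. The type VI chains *Col6a3*, *Col6a1* and *Col6a2*, which build beaded filaments around cells, came next. *Col6a3* was at 36.2, 27.5, 24.2 and 35.5 FPKM in wild type, 57.6, 23.7 and 72.2 in *Foxd1GC* control and 20.7, 16.7 and 25.2 in *Ntn1SPKO*. *Col6a1* was at 27.7, 23.2, 22.7 and 27.9 FPKM in wild type, 48.5, 23.0 and 66.4 in *Foxd1GC* control and 21.3, 19.3 and 25.8 in *Ntn1SPKO*. Both followed the order seen for type I, with *Foxd1GC* controls 1 and 3 highest and *Foxd1GC* control 2 among the rest. *Col8a2*, a chain of the hexagonal network of endothelial matrices, was at 8.49, 6.56, 7.11 and 9.86 FPKM in wild type, 18.2, 8.05 and 22.7 in *Foxd1GC* control and 6.51, 6.39 and 7.81 in *Ntn1SPKO*. The transmembrane chains *Col23a1*, *Col25a1* and *Col13a1* had means of 8.84, 4.34 and 4.30 FPKM.

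**Figure D3:**
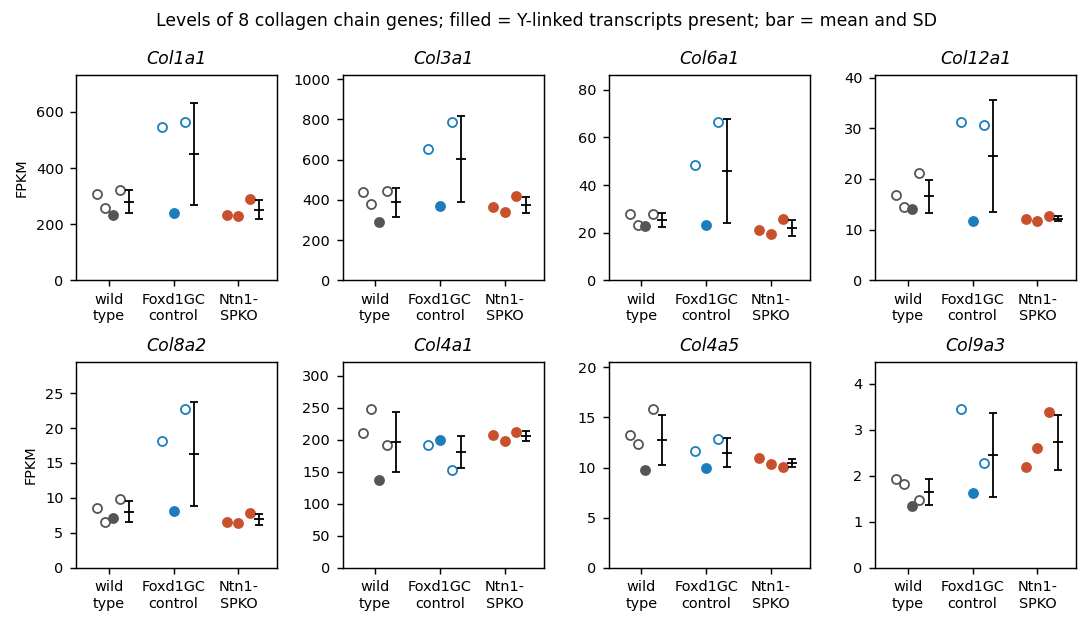
FPKM (vertical axis) of 8 collagen chain genes in each library by group; filled points have Y-linked transcripts, and the bar beside each group is its mean with SD (n = 4, 3 and 3). For *Col1a1*, *Col3a1*, *Col6a1*, *Col12a1* and *Col8a2* the 2 open points of *Foxd1GC* control lie above all other points, while for *Col4a1* the groups overlap.

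The sequences upstream of 3 start sites are shown because their genes stand for the patterns described here. *Col3a1* is the most abundant interstitial chain, *Col6a2* was the entry most closely related to its partner *Col6a1*, and *Col4a6* belongs to a pair on the X chromosome. RefSeq windows (GRCm38.p6) were found for 35 of the 44 genes and not for *Col1a1*, *Col2a1*, *Col4a3*, *Col5a2*, *Col9a3*, *Col12a1*, *Col14a1*, *Col22a1* and *Col26a1*. Each sequence gives the 250 bases before the start, 5′ to 3′ on the strand of the gene, at chr1:45311288-45311537 (plus) for *Col3a1*, chr10:76623631-76623880 (minus) for *Col6a2* and chrX:141474077-141474326 (minus) for *Col4a6*. Capitals mark the 1 match in each window to the motifs named after the sequences.
Col3a1: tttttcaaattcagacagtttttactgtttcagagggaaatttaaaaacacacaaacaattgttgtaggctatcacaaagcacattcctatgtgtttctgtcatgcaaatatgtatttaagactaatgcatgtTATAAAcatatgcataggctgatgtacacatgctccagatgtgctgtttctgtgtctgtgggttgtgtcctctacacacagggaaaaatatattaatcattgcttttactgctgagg
Col6a2: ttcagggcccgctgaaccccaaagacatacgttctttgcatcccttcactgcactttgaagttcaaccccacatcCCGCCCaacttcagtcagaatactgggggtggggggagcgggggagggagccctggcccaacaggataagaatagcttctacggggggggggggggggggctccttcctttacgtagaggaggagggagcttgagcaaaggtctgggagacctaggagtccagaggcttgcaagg
Col4a6: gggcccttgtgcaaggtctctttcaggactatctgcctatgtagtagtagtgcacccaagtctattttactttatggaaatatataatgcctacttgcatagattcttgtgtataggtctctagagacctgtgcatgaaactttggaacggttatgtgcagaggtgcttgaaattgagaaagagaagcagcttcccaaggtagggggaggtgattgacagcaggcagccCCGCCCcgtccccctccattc

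The letters of a GC box, GGGCGG (reverse complement searched too), occurred in 22 of 38 windows of collagen chain genes (57.9%) and in 32.7% of all 32851 windows of that length. The CCAAT box letters, searched on both strands, occurred in 34.2% of the collagen windows and in 33.8% of all. For TATAAA, on both strands, the shares were 13.2% and 12.4%. The motifs do not overlap one another. These matches are letters in a window and do not show binding. *Col4a1* and *Col4a2* lie head to head on chromosome 8, with start sites 21 bases apart on opposite strands. Their shared start region, chr8:11312801-11312830 on the plus strand, is shown with the bases from the *Col4a2* start to the *Col4a1* start in capitals.
Col4a1-Col4a2: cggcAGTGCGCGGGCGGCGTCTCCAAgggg

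*Col4a3* and *Col4a4* are arranged likewise on chromosome 1, with starts 72 bases apart, and *Col4a5* and *Col4a6* on the X chromosome, with starts 1309 bases apart in GENCODE. In the coding sequences of that annotation, the chains also differ in the length of their glycine repeat. The longest unbroken run of Gly-X-Y triplets was of 338, 339 and 344 triplets in *Col1a1*, *Col1a2* and *Col3a1*, but 40, 66 and 42 in *Col4a1*, *Col4a2* and *Col4a5*, whose helix is divided into 17 or 18 runs of at least 10 triplets. The FACIT chains *Col12a1* and *Col14a1* had a longest run of 32 triplets within proteins of 3065 and 1798 residues.

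To ask what loss of stromal *Ntn1* does to collagen transcripts, *Ntn1SPKO* was compared with *Foxd1GC* control. Most chains were lower in *Ntn1SPKO*, and no collagen gene passed the test. Of 36 genes tested by limma on log2(FPKM + 0.1), 28 were lower and 8 higher in mean, with a median log2 difference of -0.30 against 0.01 over all 14550 entries tested. None had an adjusted P under 0.1 with a 2-fold change, where 0.055% of all entries did. At an unadjusted P under 0.05, 7 were lower, against 5.17% of all entries, and 1 was higher, against 5.49%. The 7 were *Col8a2*, *Col6a3*, *Col14a1*, *Col6a2*, *Col6a6*, *Col5a2* and *Col6a1*, of which 5 are type VI or type VIII chains. The 1 higher was *Col7a1*, which was tested only because of its level in *Ntn1SPKO*.

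By class, all 8 fibrillar chains were lower in mean in *Ntn1SPKO* (median log2 difference -0.64), as were 4 of 5 FACIT chains (median -0.77) and 9 of 10 other chains (median -0.92). These include *Col19a1* and *Col8a1*, which averaged 0.0597 and 0.323 FPKM in *Ntn1SPKO* and were tested only because of their level in *Foxd1GC* control. Cartilage chains, which include the fibril chains *Col2a1* and *Col11a1*, were split 4 lower to 2 higher (median -0.06). Basement membrane chains were split 3 lower to 4 higher (median 0.10). *Col1a1* differed by -0.75 ± 0.33 (log2 difference ± SE, adjusted P=0.447 by limma), *Col3a1* by -0.62 ± 0.27 and *Col4a1* by 0.20 ± 0.11. The groups did not overlap for 4 genes. *Col8a2* (-1.11 ± 0.37, unadjusted P=0.0227) and *Col19a1* (-2.07 ± 0.99, unadjusted P=0.0772) were lower in every *Ntn1SPKO* library than in any *Foxd1GC* control, where 8.91% of all entries were. *Col19a1* was at 0.0929, 0.0502 and 0.0362 FPKM in *Ntn1SPKO* and at 0.459, 0.102 and 2.50 in *Foxd1GC* control. It was tested only because of its level in *Foxd1GC* control, so its lack of overlap, near 0, is not support for a difference. *Col7a1* (1.56 ± 0.58, unadjusted P=0.0345) and *Col18a1* (0.35 ± 0.15, unadjusted P=0.0545) were higher, where 11.0% of all entries were. *Col7a1* averaged 0.353 FPKM in *Foxd1GC* control and 1.55 in *Ntn1SPKO*, of which *Ntn1SPKO* 3 was at 3.10. It was tested only because of its level in *Ntn1SPKO*, so its lack of overlap is not support for a difference either. With 3 libraries against 3, the exact two-sided permutation P cannot go below 0.1, which was its value for these 4 genes.

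**Figure D4:**
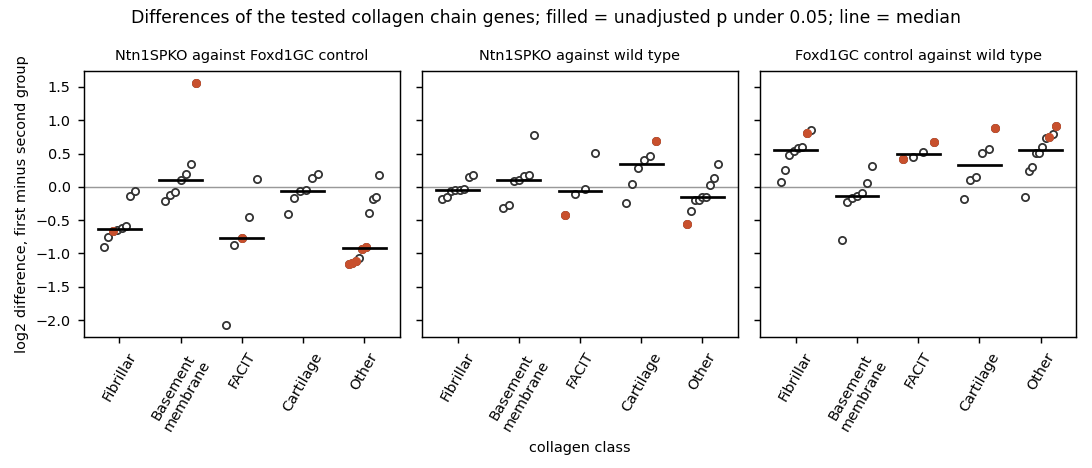
The log2 difference (vertical axis, first minus second group named above each panel) of each tested collagen chain gene by class; filled points have an unadjusted P under 0.05 by limma and lines are class medians. In the left panel the medians of fibrillar, FACIT and other chains are -0.64, -0.77 and -0.92 and that of basement membrane chains is 0.10; in the right panel the medians of fibrillar, FACIT and other chains are 0.56, 0.49 and 0.56.

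The counts depended on which libraries were used. Without *Foxd1GC* control 2, 19 of 36 collagen genes were lower at an unadjusted P under 0.05, where 11.3% of all entries were, 9 passed the test, where 0.536% of all entries did, and the median was -0.51. The 9 were *Col6a1*, *Col1a1*, *Col6a2*, *Col14a1*, *Col1a2*, *Col12a1*, *Col6a6*, *Col6a3* and *Col8a2*. The 19 include *Col19a1* and *Col8a1*, which were tested only because of their level in *Foxd1GC* control. Without *Foxd1GC* control 1, without *Foxd1GC* control 3, and without *Ntn1SPKO* 1 or 2, none was lower at that P, where 3.42%, 3.53%, 2.58% and 3.07% of all entries were. The medians of these 4 fits were still below 0, at -0.19, -0.25, -0.24 and -0.22, and 26 of 36, 21 of 34, 29 of 37 and 27 of 36 genes were lower. Without *Ntn1SPKO* 3, 5 were lower at that P (4.06% of all entries). With the presence of Y-linked transcripts as a covariate, 13 of 36 genes were lower, none at that P (1.88% of all entries), and the median was 0.04. As all *Ntn1SPKO* libraries have these transcripts, this fit sets them against *Foxd1GC* control 2 alone, and a fit of those 4 libraries by themselves gives the same differences. It has no second control library, so its calls say little. All 3 *Ntn1SPKO* and only 1 *Foxd1GC* control library have Y-linked transcripts, so that genotype and Y-linked transcripts can hardly be told apart here.

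The same split can be seen across all 10 libraries. In 17 of the 35 genes that averaged 0.5 FPKM or more, *Foxd1GC* controls 1 and 3 were both above the other 8 libraries, and in 0 both were below; over all 14534 such entries the shares were 8.2% and 11.0%. This pattern was chosen after the values were seen and has no test. The 17 comprised 6 of 8 fibrillar chains, 3 of 4 FACIT chains, 7 of 10 other chains, 1 of 7 basement membrane chains and 0 of 6 cartilage chains. Among the other chains, *Col8a1* reached 0.5 FPKM in the mean only through *Foxd1GC* controls 1 and 3. It was at 0.979 and 1.29 FPKM there and at no more than 0.656 elsewhere, so its place among the 17 is not support for the pattern. Within *Foxd1GC* control, 13 of the 35 genes differed at least 2-fold between the highest and the lowest library (12.9% of all entries), compared with 4 in wild type (11.2%) and 2 in *Ntn1SPKO* (7.82%). The library with Y-linked transcripts was the lowest of its group for 27 of 35 genes in *Foxd1GC* control (34.2% of all entries) and for 25 of 35 in wild type (34.8%), where it was also the library with the highest sum of all FPKM.

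Against wild type, which lacks the Cre, *Ntn1SPKO* collagen levels were close to the reference. Of 34 genes tested, 18 were lower and 16 higher in mean, with a median log2 difference of -0.03, and the median over all 14432 entries was 0.0034. With values rescaled to the same total, the collagen median was 0.02 and that over all entries 0.06. With quantile normalization, the collagen median was 0.03 and that over all entries 0.01. None passed the test by limma (0.0485% of all entries did). *Col6a3* (-0.56 ± 0.19, unadjusted P=0.0181) and *Col12a1* (-0.42 ± 0.14, unadjusted P=0.0182) were the 2 genes lower at an unadjusted P under 0.05, against 3.31% of all entries, and *Col9a3* (0.69 ± 0.19, unadjusted P=0.00823) was the 1 gene higher, against 2.45%. *Col12a1* was lower without overlap, as were 3.54% of all entries, and *Col9a3* was higher without overlap, as were 3.56%. Without wild type 3 the 2 lower genes became 5, and without *Ntn1SPKO* 2 they became 0, where 4.08% and 2.5% of all entries were lower. By limma, the adjusted P was 0.714 for *Col6a3* and *Col12a1* and 0.529 for *Col9a3*. *Col3a1* differed by -0.03 ± 0.16 and *Col4a1* by 0.10 ± 0.18. The FACIT chain *Col22a1*, counted as higher, was tested only because of its level in *Ntn1SPKO* (mean 0.649 FPKM against 0.419 in wild type).

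With Y-linked transcripts as a covariate, the direction of this comparison turned. Then 27 of 34 genes were higher in *Ntn1SPKO*, the median was 0.25, 8 genes were higher at an unadjusted P under 0.05 (14.0% of all entries) and none was lower (16.2%). *Col4a2* (0.75 ± 0.11), *Col2a1* (0.67 ± 0.10), *Col4a1* (0.59 ± 0.13), *Col11a1* (0.48 ± 0.13) and *Col9a3* (0.94 ± 0.28) had an adjusted P under 0.1 but not a 2-fold change. In this fit 1419 of 14432 entries were higher at that adjusted P and 1830 lower. As all *Ntn1SPKO* libraries have Y-linked transcripts, this fit sets *Ntn1SPKO* against wild type 3 alone, the lowest wild-type library for *Col4a1*, *Col4a2*, *Col2a1* and *Col11a1*.

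Between *Foxd1GC* control and wild type, most collagen genes were higher in *Foxd1GC* control. Of 35 genes tested, 28 were higher and 7 lower in *Foxd1GC* control than in wild type, with a median log2 difference of 0.47 against -0.01 over all 14594 entries. None passed the test by limma, where 0.00685% of all entries did. At an unadjusted P under 0.05, 6 were higher (3.84% of all entries) and 0 were lower (3.23%). The 6 were *Col16a1* (0.42 ± 0.12), *Col9a2* (0.88 ± 0.29), *Col1a2* (0.80 ± 0.27), *Col14a1* (0.67 ± 0.23), *Col8a2* (0.91 ± 0.34) and *Col6a2* (0.75 ± 0.28), each with an adjusted P of 0.665. *Col16a1* (exact two-sided permutation P=0.0286, the smallest that 3 against 4 allows) and *Col9a2* (P=0.0571 by the same permutation test) were higher without overlap, as were 4.04% of all entries, and no gene was lower without overlap, where 4.04% of all entries were as well. Medians were 0.56 for fibrillar, 0.49 for FACIT, 0.56 for other, 0.33 for cartilage and -0.14 for basement membrane chains. The FACIT chain *Col19a1*, counted as higher, was tested only because of its level in *Foxd1GC* control (mean 1.02 FPKM against 0.382 in wild type). The basement membrane chain *Col7a1*, counted as lower, was tested only because of its level in wild type (mean 0.925 FPKM against 0.353 in *Foxd1GC* control).

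Leaving out *Foxd1GC* control 2 raised the number higher at that P from 6 to 20 (7.81% of all entries), with a median of 0.68. The 20 include *Col6a4*, which averaged 0.379 FPKM in wild type and was at 0.723 and 1.03 in *Foxd1GC* controls 1 and 3. It was tested in this fit only because of its level in these controls. Leaving out *Foxd1GC* control 1 or 3 lowered the number to 1 or 3 (2.5% and 2.1% of all entries), with medians of 0.31 and 0.24. Leaving out wild type 3 lowered the number to 3 (5.25%), with a median of 0.39. *Foxd1GC* control 2 lay in the range of wild type for the collagen sum. The cause of the split among the *Foxd1GC* control libraries was not tested. Within the libraries that lack Y-linked transcripts, 2 *Foxd1GC* control against 3 wild type, 18 of 38 genes were higher at an unadjusted P under 0.05, where 10.3% of all entries were, and the median was 0.61. The comparisons with *Foxd1GC* control share those 3 libraries, so that a high level there enters the first comparison as lower in *Ntn1SPKO* and the last as higher in *Foxd1GC* control.

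Chains that join in 1 trimer were then set side by side in 10 pairs. Over all 10 libraries, Pearson's r passed an adjusted permutation P of 0.05 in 9 pairs and Spearman's rho in 7. *Foxd1GC* controls 1 and 3 form a cluster of their own for interstitial chains, so r is given for these over the other 8 libraries, a choice made after the values were seen. *Col6a1* and *Col6a2* then had r=0.956 (adjusted exact permutation P=0.00223) and rho=0.929 (adjusted exact permutation P=0.00558), and r=0.925 without the 2 libraries farthest from the median. *Col6a1* with *Col6a3* had r=0.948 (adjusted exact permutation P=0.00248) and the same rho, and r=0.868 without the 2 farthest. *Col5a1* with *Col5a2* had r=0.905 (adjusted exact permutation P=0.00707) and the same rho, and r=0.893 without the 2 farthest. Type VI and type V partners thus kept together apart from the 2 high libraries.

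*Col1a1* with *Col1a2* had r=0.612 and rho=0.619 over the 8 libraries (adjusted exact permutation P=0.118 and 0.164), and *Col8a1* with *Col8a2* had r=0.761 and rho=0.619 (adjusted exact permutation P=0.0513 and 0.164). Both pairs passed over all 10 libraries and missed the threshold over these 8.

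Pairs of basement membrane and cartilage chains, which have no such cluster, are given over all 10 libraries. *Col4a5* with *Col4a6* had r=0.964 (adjusted permutation P=0.00025) and rho=0.952 (adjusted permutation P=0.000575), and r=0.898 without the 2 farthest libraries. *Col4a1* with *Col4a2* had r=0.861 and rho=0.733 (adjusted permutation P=0.00234 and 0.0295), and r=0.437 without the 2 farthest, so that the relation rested on them. *Col2a1* with *Col11a1* had r=0.748 and rho=0.552 (adjusted permutation P=0.0205 and 0.116) and likewise dropped, to r=0.0621. The relation of *Col9a1* with *Col9a3* had r=0.743 and rho=0.648 (adjusted permutation P=0.0141 and 0.0616), and r=0.587 without the 2 farthest. *Col4a3* with *Col4a4*, both near 0, had r=0.304 and rho=0.382 (adjusted permutation P=0.39 and 0.279). As a description over 10 libraries, *Col6a2* ranked 1 of 14533 entries by r to *Col6a1*, *Col4a6* ranked 1 to *Col4a5* and *Col5a2* ranked 3 to *Col5a1*.

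**Figure D5:**
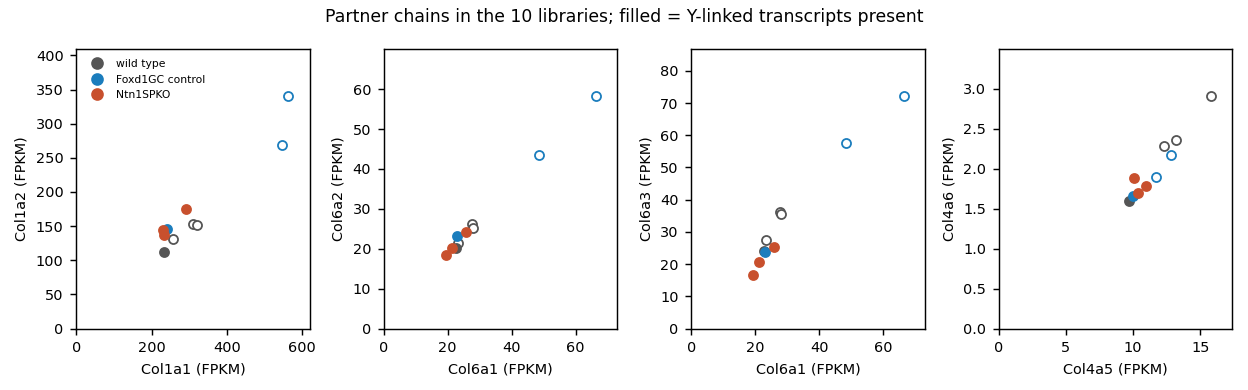
FPKM of partner chains plotted against each other in the 10 libraries, both axes linear and from 0; filled points have Y-linked transcripts. Points of *Col6a1* and *Col6a2* and of *Col4a5* and *Col4a6* lie along a line, and *Foxd1GC* controls 1 and 3 sit apart from the other 8 in the first 3 panels.

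As FPKM is per length, ratios of partner chains can be read as relative transcript levels. *Col1a1* to *Col1a2*, which join 2 to 1 in most type I collagen, stood at 2.02, 1.96, 2.08 and 2.12 in wild type, 2.04, 1.64 and 1.65 in *Foxd1GC* control and 1.71, 1.60 and 1.66 in *Ntn1SPKO*. The ratio was thus lower in every *Ntn1SPKO* library than in any wild-type library, and *Foxd1GC* control held both levels. *Col6a1* to *Col6a3* was at 0.766, 0.846, 0.936 and 0.787 in wild type, 0.842, 0.970 and 0.920 in *Foxd1GC* control and 1.03, 1.15 and 1.02 in *Ntn1SPKO*, without overlap between *Ntn1SPKO* and the others. *Col6a1* to *Col6a2* kept within 0.995 to 1.14, *Col4a5* to *Col4a6* within 5.35 to 6.14, *Col5a1* to *Col5a2* within 1.03 to 1.25 and *Col4a1* to *Col4a2* within 2.66 to 3.52. No test was run on ratios, which were looked at for all 10 pairs.

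Genes that modify, fold, export, trim, crosslink, degrade and bind collagen were examined as a list of 49. *Serpinh1*, the collagen chaperone of the endoplasmic reticulum, was at 441, 422, 468 and 437 FPKM in wild type, 463, 427 and 540 in *Foxd1GC* control and 425, 455 and 440 in *Ntn1SPKO*, with overlap throughout. *P4ha1*, a catalytic subunit of prolyl 4-hydroxylase, was at 27.8, 28.1, 30.7 and 31.8 FPKM in wild type, 28.5, 26.5 and 40.5 in *Foxd1GC* control and 31.3, 33.7 and 30.1 in *Ntn1SPKO*. *Lox*, which starts the crosslinks of collagen and elastin, was at 14.4, 12.998, 13.1 and 14.5 FPKM in wild type, 23.2, 12.9 and 27.9 in *Foxd1GC* control and 11.8, 12.4 and 15.1 in *Ntn1SPKO*, with the same 2 highest libraries as *Col1a1*. *Foxd1GC* controls 1 and 3 were above the other 8 libraries for 16 of 43 genes of this list that averaged 0.5 FPKM or more (8.2% of all entries).

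None of the list passed the test by limma in the 3 comparisons, though 2 of 45 did without *Foxd1GC* control 2, where 0.536% of all entries did. The fit against wild type with Y-linked transcripts as a covariate sets *Ntn1SPKO* against wild type 3 alone, so its calls are not counted here. In *Ntn1SPKO* against *Foxd1GC* control, 36 of 44 tested were lower in mean (median -0.16), 5 at an unadjusted P under 0.05 (5.17% of all entries), and none was higher at that P (5.49%). With Y-linked transcripts as a covariate, which sets *Ntn1SPKO* against *Foxd1GC* control 2, 15 of 44 were lower, none at that P, and the median was 0.07. The 3 with the lowest P were *Adamts2*, the procollagen N-proteinase (-1.35 ± 0.42), *Ctsk*, a protease that cleaves collagen (-1.25 ± 0.42), and the lysyl oxidase *Loxl4* (-0.72 ± 0.25). Against wild type, 22 of 43 were lower and 21 higher (median -0.0048), 4 of them lower (3.31% of all entries) and 1 higher (2.45%) at that P. *Adamts2* (-0.75 ± 0.15) and *Loxl4* (-0.54 ± 0.17) were among the 3 with the lowest P here too, and *P4ha3*, another prolyl 4-hydroxylase subunit, was higher (0.59 ± 0.14). *Adamts2* was at 1.51, 1.85 and 1.78 FPKM in *Ntn1SPKO*, below the 7.34, 2.21 and 5.56 of *Foxd1GC* control and the 2.69, 2.61, 2.92 and 3.61 of wild type. It was thus lower without overlap in both comparisons, as were 7 of 44 and 4 of 43 genes of the list and 8.91% and 3.54% of all entries. Its adjusted P by limma was 0.447 and 0.245, and both comparisons use the same *Ntn1SPKO* libraries. In *Foxd1GC* control against wild type, 35 of 43 were higher (median 0.16), 6 at that P (3.84% of all entries) and led by *P4ha3* (0.61 ± 0.19), *Sec24d* (0.32 ± 0.11), a coat protein of the vesicles that export procollagen, and *P3h3* (0.38 ± 0.13), and none was lower at that P.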

How the data were processed

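RNA-seq libraries of whole kidneys from embryos at E13.5 (4 wild type, 3 *Foxd1GC* control, 3 *Ntn1SPKO*) were analysed from the FPKM values that the authors deposited, 1 column per library. According to the study's methods, abundances came from Salmon on an index of Ensembl GRCm38 coding sequences and were brought to genes with tximport; the submitters' processing notes also name bcl2fastq 2.17.1.14. Without counts, limma 3.58.1 (R 4.3.3) was run on log2(FPKM + 0.1) over entries with a mean of at least 0.5 FPKM in the fitted libraries, with a spread that follows intensity and P adjusted by Benjamini-Hochberg. A gene passed at an adjusted P under 0.1 with a 2-fold change. Fold changes on this scale understate those of low genes. Median-of-ratios factors of the deposited values were 1.00 in all libraries, so no scaling was applied. The rule, lists and classes were chosen with earlier results of these data known. Named were *Ntn1*, the 3 most abundant chains of each class, genes that passed or led without overlap, partner chains and chains near 0; *Col5a3*, *Col24a1*, *Col27a1*, *Col15a1*, *Col22a1*, *Col11a2*, *Col6a6*, *Col13a1*, *Col23a1* and *Col25a1* were named after their values were seen. Sex was not recorded, and Y-linked transcripts were read as present above 5 FPKM of *Ddx3y*. The study's legends give 1 embryo as a replicate, with several litters per experiment; which libraries share a litter is not given in the sources used here, so P-values measure the spread between these libraries. The limma script was tested on simulated data. Annotation was GENCODE M21 and sequences were from RefSeq, GRCm38.p6.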

Additional observations from a re-analysis of the deposited data

Results flagged for a closer look

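A ratio of the gap at one end to the whole range was computed in the 4 wild-type libraries for 57 quantities (35 genes, class sums and shares, and chain ratios), and 1 was beyond Dixon's critical value, where chance flags about 1 in 20. *Col5a3*, a minor fibrillar chain, was at 0.683, 0.701 and 0.730 FPKM in wild types 1, 2 and 3 and at 1.01 in wild type 4, a ratio of 0.857.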

How the results depend on the processing

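Counts of collagen genes at an unadjusted P under 0.05 changed most with the libraries and with Y-linked transcripts, and the counts that passed the test stayed at 0 apart from the fit without *Foxd1GC* control 2. In *Ntn1SPKO* against *Foxd1GC* control, the 7 lower genes became 16 with all 10 libraries in one fit (5.29% of all entries), and 0 with Y-linked transcripts as a covariate (1.88%) or in libraries with Y-linked transcripts alone (2.82%, chosen after seeing the data). Leaving out 1 library gave 0 to 19, with 0 to 9 that passed, and 0 to 17 for the biosynthesis list. The 16 and the 19 include *Col19a1* and *Col8a1*, which were tested only because of their level in *Foxd1GC* control. In *Ntn1SPKO* against wild type, the 2 lower genes became 5 without a filter (3.33%) and 0 with the same total FPKM (2.25%), with all 10 libraries in one fit (2.27%), with Y-linked transcripts as a covariate (16.2%) and in libraries with Y-linked transcripts alone (15.3%), and the 1 higher gene became 8 under both Y-linked settings (14.0% and 12.3%). Leaving out 1 library gave 0 to 5 lower and 1 to 2 higher, and 2 to 5 for the biosynthesis list. In *Foxd1GC* control against wild type, the 6 higher genes became 11 with all 10 libraries in one fit (4.93%), 15 with the covariate (5.37%) and 18 in libraries without Y-linked transcripts alone (10.3%). Leaving out 1 library gave 1 to 20, and 1 to 18 for the biosynthesis list. The 20 include *Col6a4*, which was tested there only because of its level in *Foxd1GC* control. With the replicate number as a block, the counts were 13 lower (5.63% of all entries), 1 lower (3.31%) and 5 higher (3.8%) in the 3 comparisons. Same-numbered libraries had correlations of deviations of -0.039 to 0.078. Libraries with different numbers were not compared in this way, so a pairing was neither shown nor excluded. Under both pseudocounts and under robust and trend-free spread these counts stayed within 1.5 times, but the 1 higher gene of the first comparison became 0 with a pseudocount of 1. *Col8a2*, *Col19a1*, *Col7a1*, *Col18a1*, *Col12a1*, *Col9a3*, *Col16a1* and *Col9a2* kept their direction in every alternative in which they were tested, but not their size. With the covariate, *Col8a2* went from -1.11 to -0.22 and *Col19a1* from -2.07 to -0.36. Leaving out 1 library moved *Col8a2* over -1.55 to -0.81, *Col7a1* over 0.93 to 2.00 and *Col18a1* over 0.17 to 0.45. Depth limits the 9 genes below 0.5 FPKM. The cause of these changes was not tested.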
